A study of Mus musculus with 17 samples.

Results

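Described here are 8 mouse transcripts, ENSMUST00000172007, ENSMUST00000098115, ENSMUST00000163580, ENSMUST00000107991, ENSMUST00000107998, ENSMUST00000108024, ENSMUST00000098113 and ENSMUST00000105156, out of 37991 Ensembl transcripts counted in testis. They were chosen from their values in RNA immunoprecipitates, as rows of like coding size with near-identical counts that were far higher with an antibody to MAEL than with rabbit IgG. MAEL (Maelstrom) is a protein of germ cells that helps to silence transposons and is found in the granules where long piRNA precursor transcripts and PIWI proteins meet. piRNAs are the small RNAs, longer than microRNAs, that guide PIWI proteins, and in meiotic cells most are cut from long single-stranded precursors. MAEL is known to bind such precursors and to be needed for their processing, which is the setting of this study. The files give these transcripts no gene symbol and no coordinates, so what they encode is not analysed here, and no sequence is shown.

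The series holds 17 libraries in 10 groups, all from testis of 129SvJae mice, whose age the sources used here do not give. Wild-type testis gave 2 libraries of long RNA precipitated with anti-MAEL, 1 with rabbit IgG, and 1 library each of anti-MAEL RNA of 50 to 150 nt and of 15 to 50 nt. Lysates of wild-type testis and of Mael-/- testis, which lacks the gene, gave 2 libraries per genotype and kind of RNA, without immunoprecipitation. The kinds were mRNA, ribosome footprints (26 to 34 nt, the pieces of mRNA that ribosomes shield) and small RNA (15 to 50 nt). The labels name no separate animals for libraries a and b, so a p-value here speaks only to how those libraries vary, which may be technical. Library totals ran from 1668197 counts in a footprint library to 172728187 in the 15 to 50 nt immunoprecipitate. Levels are in CPM, the counts scaled to a library total of 1e6, and each SD comes from 2 libraries. The level of Mael itself and of testis marker genes could not be used as checks of the labels, because 0 transcript IDs could be matched to the gene tables in hand.

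By their sizes the members fall into 2 sets. The immunoprecipitate and small RNA tables list a whole length, and the mRNA and footprint tables a smaller coding size. For 2023 transcripts, 3 times the sum of coding size and 20 equals the whole length exactly, against 0 transcripts with 19 in place of 20 and 21 transcripts with 21. Coding size is therefore read here as codons less 20, an inference from the values. The larger set has 6 members. ENSMUST00000107991, ENSMUST00000107998 and ENSMUST00000108024 are 909 nt long with a coding size of 283, so that on this reading the whole of each annotated transcript is coding. ENSMUST00000172007 and ENSMUST00000163580 (1452 nt, coding size 285) and ENSMUST00000098115 (1450 nt, coding size 284) carry a similar coding part, 63.0%, 63.0% and 62.9% of their length, with noncoding sequence beside it. The smaller set is ENSMUST00000098113 and ENSMUST00000105156, both 4968 nt long with a coding size of 122, so that 8.575% of each is coding.

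Within each set, counts were near-identical in mRNA, and not in small RNA. Among the 6 larger-set members the highest count was 1.05 to 1.14 times the lowest in the 4 mRNA libraries, 1.41 and 1.45 times in the long-RNA anti-MAEL libraries, and 3.36 to 4.37 times in the 4 small RNA libraries. The pair of 4968 nt agreed to within 1 count in long RNA and mRNA, and in small RNA 1 copy had 4.07 to 6.05 times the count of the other. In the 3 long-RNA immunoprecipitates the 3 transcripts of 909 nt had the same counts, 6710, 8165 and 217, and the 8 members held 6 different count profiles. In mRNA and in footprints there were 5 different profiles each, in small RNA 7, and over all 17 libraries 8. No transcript outside the 8 matched a member in every library (0 found). Equal rows can be the same reads counted at every copy, and the sources used here do not give how the counting treated reads with several matches. The members are therefore not independent of each other, their counts were not summed, and 8 members may be as few as 2 separate signals.

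With anti-MAEL, all 8 transcripts stood among the most abundant coding transcripts, and with IgG they did not. ENSMUST00000098115 had 1643 CPM in anti-MAEL replicate a, 1092 in replicate b and 42.4 with IgG, ranks 5, 12 and 2049 of the 18286 transcripts with a coding size. For ENSMUST00000172007 the levels were 1365, 940 and 38.8 CPM. For ENSMUST00000163580 they were 1177, 796 and 31.3 CPM. Both anti-MAEL libraries lay far above the IgG library for each of these, and replicate a was the higher of the pair.

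The 3 transcripts of 909 nt had 1168 CPM in replicate a, 752 in replicate b and 27.9 with IgG. The pair of 4968 nt had 854 and 860 CPM with anti-MAEL and 46.5 with IgG, nearly the same in both anti-MAEL libraries. Per kilobase of transcript the 909 nt transcripts stood highest of the members and the 4968 nt pair lowest. In CPM the pair had instead lain above the 909 nt transcripts in replicate b, 860 against 752. The 909 nt transcripts had 1284 and 827 CPM per kilobase, ENSMUST00000098115 had 1133 and 753, and the 4968 nt pair had 172 and 173.

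**Figure D1:**
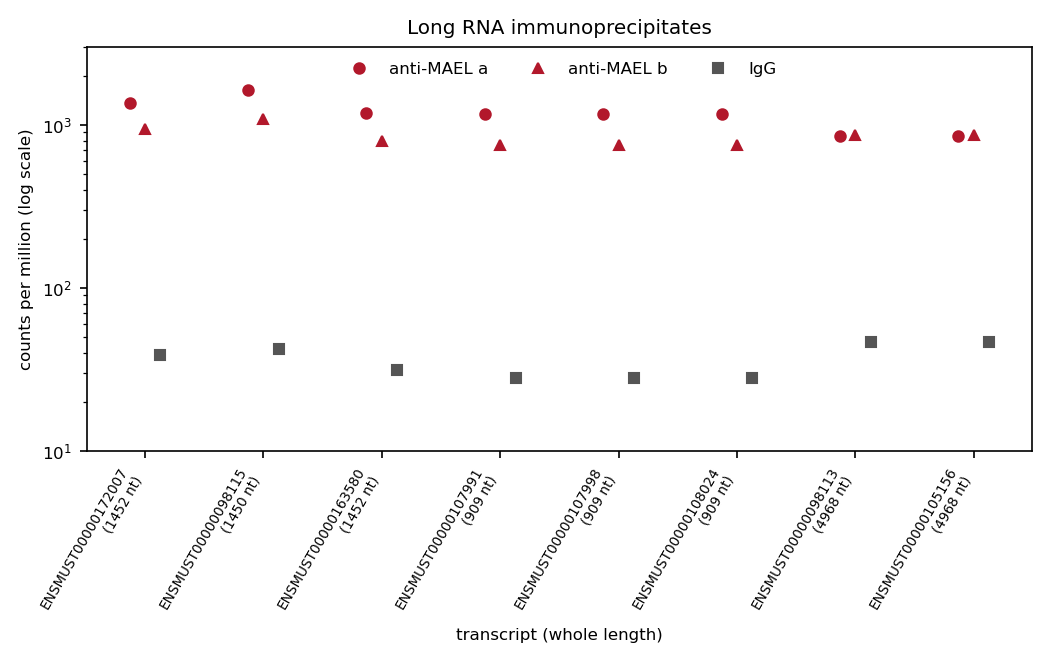
Level of each of the 8 transcripts in the long-RNA immunoprecipitates, in CPM on a log axis. Red circles and triangles are anti-MAEL replicates a and b and grey squares the single IgG library, and each anti-MAEL point lies between 752 and 1643 CPM while IgG lies between 27.9 and 46.5.

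These levels chose the members, so the folds are a description without a test. Over IgG the 909 nt transcripts were 41.9-fold higher in replicate a and 27.0-fold in replicate b, ENSMUST00000098115 38.8-fold and 25.8-fold, ENSMUST00000163580 37.6-fold and 25.4-fold, and ENSMUST00000172007 35.2-fold and 24.2-fold. The pair of 4968 nt stood at 18.4-fold and 18.5-fold, below the limit of 20 that the choice names. Their raw counts, 4906 and 9341 for ENSMUST00000098113 against 362 with IgG, pass it in replicate b alone. Thus 6 of 8 members were more than 20-fold higher in both libraries, under library totals, coding totals and TMM-scaled totals alike. Of 7167 coding transcripts with at least 20 counts in both anti-MAEL libraries, 19 (0.265%) were past 20-fold in both, and these 6 are among them. Over the same transcripts the median of the weaker fold was 0.624. The median log2 fold of the 8 members was 4.95 ± 0.407 (SD, n = 2). How much IgG background varies could not be seen from its 1 library.

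Among the members, ENSMUST00000172007 and ENSMUST00000163580 lay just inside the limit. Just outside it, among transcripts that are not members, lay ENSMUST00000095114 (870 nt) and ENSMUST00000108012 (868 nt), at 20.3-fold and 19.4-fold, each from 75 and 135 reads in the anti-MAEL libraries and 5 in the IgG library. These are of far lower count than any member.

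RNA of small size precipitated with anti-MAEL separated the 2 sets most sharply. At 15 to 50 nt the 6 transcripts of 909 to 1452 nt had 927157 to 1222072 counts each, 5368 to 7075 CPM. ENSMUST00000098115, at 0.7075% of all counts in that library, ranked 1 among coding transcripts, followed by ENSMUST00000172007 and ENSMUST00000163580. Among all Ensembl transcripts, with or without a coding size, they ranked 13, 14 and 15. Each position of a 909 nt transcript carried on average 1020 counts. The 4968 nt pair had 9879 and 10348 counts, 57.2 and 59.9 CPM, or 1.99 and 2.08 counts per position.

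At 50 to 150 nt the 6 had 770 to 1486 CPM and the pair 41.6 and 41.7 CPM. These size-selected immunoprecipitates have 1 library each and no IgG library of their size, so background RNA was not measured there and no test was made.

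Set against total small RNA of wild-type testis, the 15 to 50 nt immunoprecipitate held much more from some members than from others. ENSMUST00000107991 and ENSMUST00000108024 were 53.2-fold and 53.8-fold higher in it than in wild-type small RNA replicates a and b. ENSMUST00000107998, of the same length and with the same immunoprecipitate counts within a few reads, was 16.4-fold and 17.2-fold higher. For the 3 transcripts of 1450 to 1452 nt the folds ran from 15.7 to 17.2, for ENSMUST00000098113 they were 5.46 and 5.93, and for ENSMUST00000105156 0.946 and 1.12. Over 3541 transcripts with at least 20 counts in all 3 libraries the median folds were 1.72 and 1.36. The 909 nt transcripts ENSMUST00000107991 and ENSMUST00000108024 thus lay above 94.4% of these transcripts or more. ENSMUST00000107998 and the 3 transcripts of 1450 to 1452 nt lay above only 74.6% to 76.0% of them. ENSMUST00000098113 lay above 60.35% and 61.11%, and ENSMUST00000105156 lay below the median in both comparisons. The immunoprecipitate and the lysates were prepared differently, which cannot be told apart from the antibody here.

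Which libraries told copies of equal length apart depended on the copies. Those of 909 nt differed in lysate small RNA. In wild-type small RNA, ENSMUST00000107998 had 14536 counts in replicate a and 2421 in replicate b, where ENSMUST00000107991 and ENSMUST00000108024 each had 4483 and 776. The difference of 226 and 212 CPM in wild type was 429 and 572 CPM in Mael-/- replicates a and b. In the 15 to 50 nt anti-MAEL library the same difference was -18 counts of 927175, and in long RNA, mRNA and footprints it was 0. The difference was thus present in all 4 lysate small RNA libraries and all but absent from the size-selected immunoprecipitates. In wild-type small RNA replicate a the 3 transcripts of 1450 to 1452 nt had 19258 to 19571 counts. ENSMUST00000107998 was nearer to these, so ENSMUST00000107991 and ENSMUST00000108024 were the low members of the larger set.

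The 4968 nt pair showed a like split. ENSMUST00000105156 had 2814 and 415 counts in wild-type small RNA against 465 and 75 at ENSMUST00000098113, a difference of 52.9 and 43.7 CPM. In Mael-/- the difference was 92.3 and 90.9 CPM, and in the 15 to 50 nt immunoprecipitate 2.71 CPM. Small RNA libraries keep the strand and the long-RNA libraries do not, per the labels. Reads from an overlapping feature on either strand could fall to some copies and not to others. Whether they did was not tested.

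The 1452 nt copies, ENSMUST00000172007 and ENSMUST00000163580, went the other way. In lysate small RNA they differed by -0.0468% to 0.0972% over the 4 libraries. In long RNA ENSMUST00000172007 had the higher count, by 16% and 18% with anti-MAEL and 23.8% with IgG, and by 39% in the 50 to 150 nt immunoprecipitate. At 15 to 50 nt with anti-MAEL they differed by 0.995%.

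**Figure D2:**
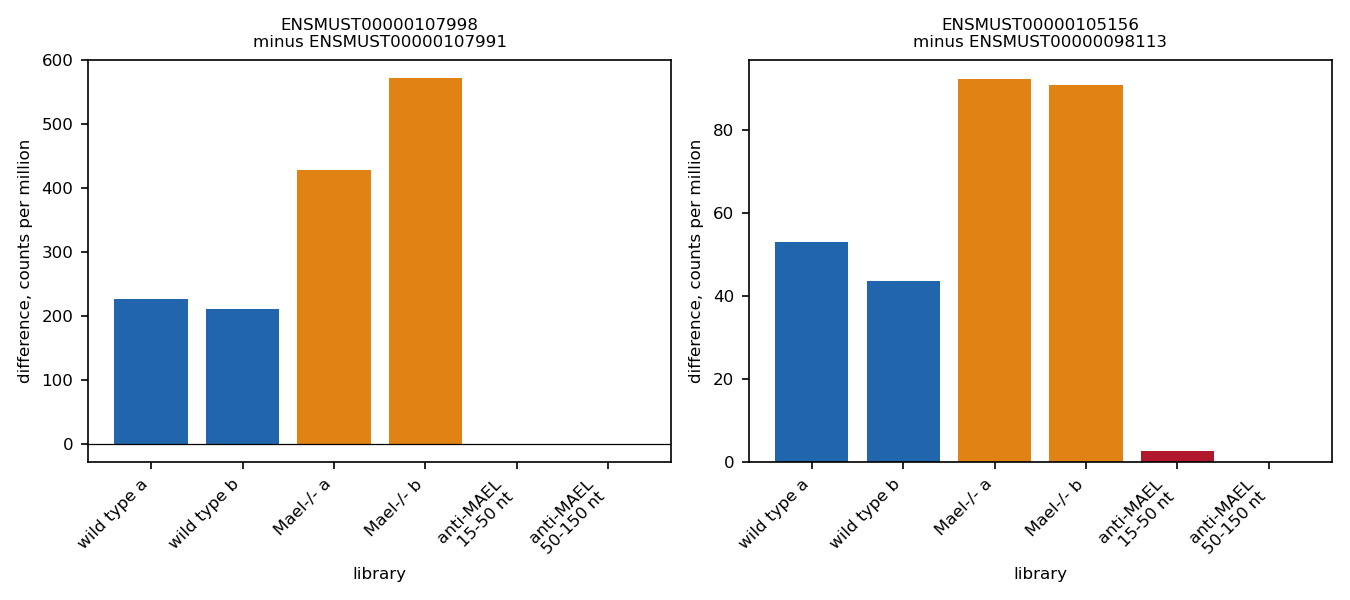
Difference in CPM between copies of equal length, ENSMUST00000107998 minus ENSMUST00000107991 on the left and ENSMUST00000105156 minus ENSMUST00000098113 on the right, as bars for 6 small or size-selected libraries. Blue and orange bars are wild-type and Mael-/- small RNA, from 43.7 to 572 CPM, and the anti-MAEL bars (red) are at 2.71 CPM or less.

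The excess of a longer copy over a 909 nt copy depended on which 909 nt copy it was set against. ENSMUST00000098115 exceeded ENSMUST00000107991 by 40.7% and 45.3% in the long-RNA anti-MAEL libraries, by 52.1% with IgG by 93.1% in the 50 to 150 nt immunoprecipitate and by 31.8% in that of 15 to 50 nt. In wild-type small RNA it exceeded ENSMUST00000107991 by 330% and 313%, and in Mael-/- by 230% and 280%. Against ENSMUST00000107998 the excess in small RNA was 32.5% and 32.5% in wild type and 60.9% and 47.5% in Mael-/-, within or near the range of the immunoprecipitates. In the coding counts of mRNA ENSMUST00000098115 and the 909 nt transcripts differed by 0.128% in wild-type replicate a and by 0 in the other 3 libraries.

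Small RNA counted at these transcripts was next compared between genotypes. As shares of the library total, all 8 were higher in both Mael-/- libraries than in both wild-type libraries, and so were 62.2% of the 12924 features with a mean of at least 5 counts. ENSMUST00000098115 went from 434 and 412 CPM in wild type to 1344 and 1380 in Mael-/-. ENSMUST00000107991 went from 101 and 99.8 to 407 and 363 CPM, and ENSMUST00000107998 from 327 and 311 to 836 and 935. Mael-/- levels were thus 3.22, 3.84 and 2.77 times the wild-type means. The smallest difference was at 1 of the 4968 nt copies, ENSMUST00000105156, which went from 63.4 and 53.4 to 120.1 and 120.5 CPM (2.06 times), while ENSMUST00000098113 went from 10.5 and 9.64 to 27.9 and 29.6 CPM (2.86 times).

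This difference depended on the scaling. With TMM, which sets the bulk of the 9906 features to be equal between libraries, 0 of 8 passed the test (edgeR quasi-likelihood, adjusted p from 0.307 to 0.846), and 0 had an unadjusted p under 0.05. DESeq2 likewise called 0 of 8. Of all features, 3.82% were called higher and 3.49% lower. The log2 fold change of ENSMUST00000107991 was 0.78 ± 0.491 (SE) and that of ENSMUST00000105156 -0.15 ± 0.463, and the median of the 8 was 0.49 against 0.15 for all features. With library totals in place of TMM, 8 of 8 were called higher, as were 24.7% of all features, and the medians of the 8 and of all features were 1.69 and 1.42. The median of the 8, which include copies that may share reads, lay a little above that of all features under both scalings. ENSMUST00000105156 lay below the median of all features under both (1.05 with library totals). Without Mael-/- replicate a the medians under TMM were -0.21 for the 8 and 0.20 for all features. Most of the change with library totals was shared with the other features. The split of calls over all features moved with the scaling, from 378 higher and 346 lower with TMM to 2449 and 139 with library totals and 226 and 347 with RLE size factors. Without Mael-/- replicate b, 6 of 8 were called higher under TMM, and without Mael-/- replicate a all 8 lay below 0.

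**Figure D3:**
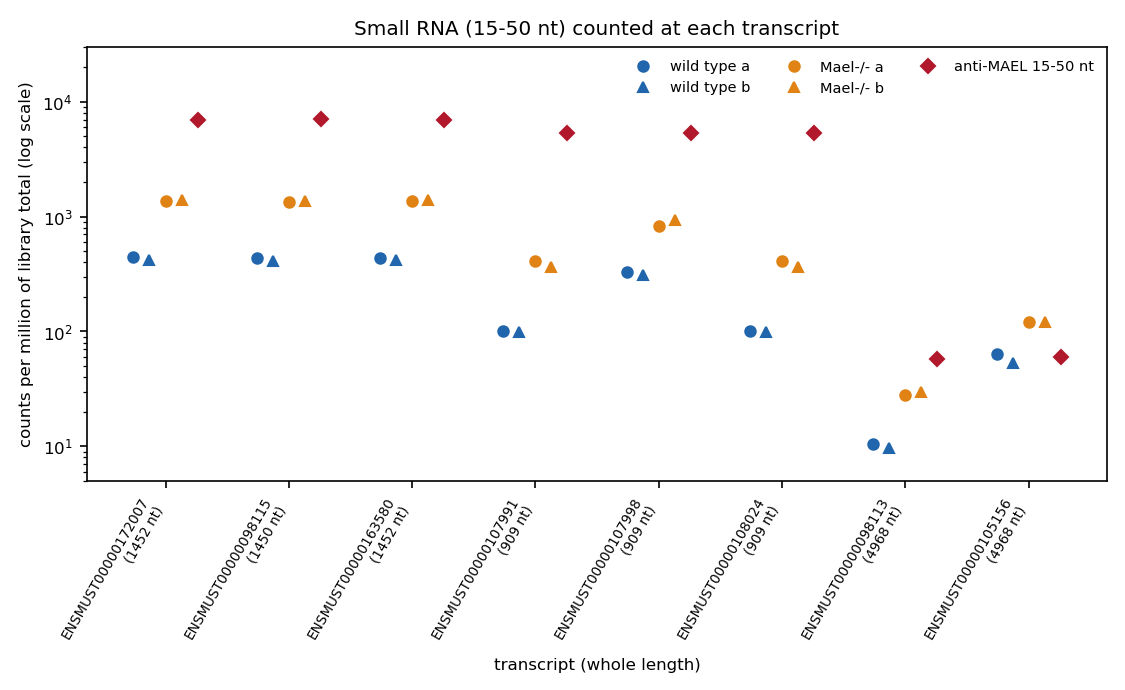
CPM of the library total, on a log axis, for small RNA of 15 to 50 nt at each transcript. Blue and orange points are the 2 wild-type and 2 Mael-/- libraries and red diamonds the anti-MAEL immunoprecipitate, which lies at 5368 to 7075 CPM for the 6 transcripts of 909 to 1452 nt and at 57.2 and 59.9 CPM for the pair of 4968 nt.

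In mRNA all 8 transcripts fell in Mael-/- testis. ENSMUST00000098115 had 50.9 and 58.5 CPM in wild type and 6.96 and 15.0 CPM in Mael-/-, or 54.7 ± 5.36 against 11.0 ± 5.69 CPM (SD, n = 2). The 909 nt transcripts had 50.9 and 58.5 against 6.96 and 15.0 CPM, ENSMUST00000172007 had 48.7 and 56.7 against 7.48 and 14.5, and ENSMUST00000163580 44.6 and 53.3 against 7.13 and 14.3. Every wild-type library lay above every Mael-/- library, as for 26.4% of the 12198 transcripts with a mean of at least 5 counts, and of the Mael-/- pair replicate b was the higher for each of these members. The 4968 nt pair had 152 and 80 counts in wild type and 22 and 21 in Mael-/-, or 9.89 and 11.9 against 3.83 and 5.08 CPM. Here too the genotypes did not overlap, and the means differed by 2.44 times, against 4.57 to 4.98 times in the other 6.

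The log2 fold change was -2.61 ± 0.408 (SE) for ENSMUST00000098115, -2.61 ± 0.408 for the 909 nt transcripts, -2.55 ± 0.379 for ENSMUST00000172007, -2.49 ± 0.390 for ENSMUST00000163580 and -1.57 ± 0.351 for the 4968 nt pair (edgeR quasi-likelihood, Benjamini-Hochberg adjusted p = 0.0330 for each). That was the smallest adjusted p of any transcript in this fit, so it does not rank the members. Their unadjusted p from the same test ran from 0.00044 to 0.00384. Of the 11181 transcripts tested, 17.7% were called lower and 15.2% higher, and the median over all was 0.21 against -2.58 for the members. The 8 were called lower under each scaling, with no filter and with DESeq2. With either wild-type library left out, 0 were called, as 0 of all transcripts were, and their fold changes then lay between -2.71 and -1.45. In whole testis, fewer cells of a type and less RNA per cell cannot be told apart. Since copies can share reads, the 8 calls stand for 5 different count profiles. Over all transcripts the split moved with the scaling, from 1696 higher and 1979 lower with TMM to 3287 and 1470 with library totals and 710 and 1877 with RLE size factors, while the median log2 fold change moved from 0.21 to 0.49 and 0.05.

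Ribosome footprints on these transcripts were few. The 6 transcripts of the larger set had 16 to 18 counts in wild-type replicate a and 15 to 19 in replicate b, against 3 or 4 and 1 in Mael-/- replicates a and b. ENSMUST00000098115 thus had 3.59 and 5.16 CPM in wild type and 1.46 and 0.599 CPM in Mael-/-. The genotypes did not overlap for these 6, as for 29.2% of the 10751 transcripts with a mean of at least 5 counts, which were lower in both Mael-/- libraries. The 4968 nt pair had 0 footprints in all 4 libraries, which allows up to 0.599 and 0.911 CPM in wild type and 1.10 and 1.8 CPM in Mael-/- (3 counts in each library, counting error only).

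Only 4 of 8 members passed the filter on low counts, and only through their wild-type levels, so a lower value in Mael-/- was built into their selection and the test supports nothing about them. For the record, the log2 fold change was -2.01 ± 0.697 (SE) for ENSMUST00000098115, with an adjusted p of 0.0463 from edgeR's quasi-likelihood test. For the 909 nt transcripts it was -1.92 ± 0.696 (adjusted p = 0.0556). Of 9783 transcripts tested, 20.3% were called lower and 11.3% higher, 1988 and 1102 transcripts, against 1742 and 1731 with library totals. With library totals or with DESeq2, and without any single library that left members to test, 0 members were called.

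**Figure D4:**
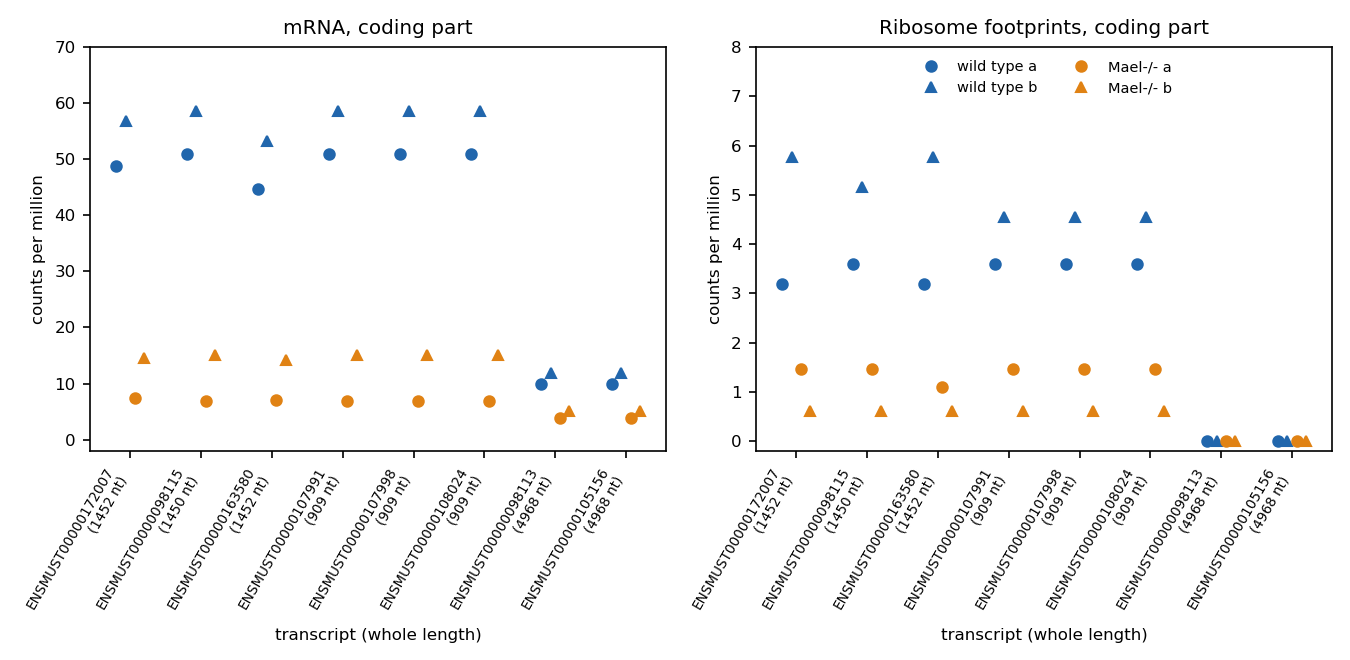
CPM in mRNA (left) and ribosome footprints (right) for each transcript, with blue wild-type and orange Mael-/- points and circles and triangles for replicates a and b. In mRNA each blue point lies above the orange points of its transcript, and in footprints the 4968 nt pair is at 0 throughout.

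In wild-type testis these mRNAs carried few footprints for their abundance. The ratio of footprint CPM to mRNA CPM, a measure of ribosomes per mRNA, was 0.0706 and 0.0779 for the 909 nt transcripts in replicates a and b, 0.0706 and 0.0883 for ENSMUST00000098115, 0.0656 and 0.102 for ENSMUST00000172007 and 0.0716 and 0.108 for ENSMUST00000163580. Over coding transcripts with at least 20 mRNA counts, 10896 and 9852 in the 2 libraries, the median ratio was 0.914 and 0.875 and the tenth percentile 0.191 and 0.203. All 6 lay under that percentile, above 3.39% to 4.49% of transcripts. For the 4968 nt pair, 3 footprint counts would give a ratio of 0.0606 and 0.0767, so their ratio is at most of the order seen in the other set. Reads that match several copies may be treated differently for short footprints and for longer mRNA reads, and this was not tested.

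In Mael-/- testis the ratio for ENSMUST00000098115 was 0.210 and 0.0399, or 0.125 ± 0.120 (SD, n = 2), resting on 4 and 1 footprint counts, against 0.0794 ± 0.0125 in wild type. The change in ratio did not pass the test for any of the 6 members with footprints (edgeR quasi-likelihood on the interaction of assay and genotype, adjusted p from 0.759 to 0.935), and 0 of the 6 had an unadjusted p under 0.05. DESeq2 gave these 6 no adjusted p, so it made no call on them either way, and its unadjusted p ran from 0.330 to 0.726. In edgeR the log2 change in ratio was 0.80 ± 0.804 (SE) for the 909 nt transcripts and 0.26 ± 0.938 for ENSMUST00000163580. Over all 11427 transcripts 0 were called higher and 0 lower, which is 0% of those tested (915 at an unadjusted p under 0.05; DESeq2 called 49 higher and 1 lower). The standard errors of the members' values, 0.804 to 0.938, were about as large as the values themselves or larger.

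**Figure D5:**
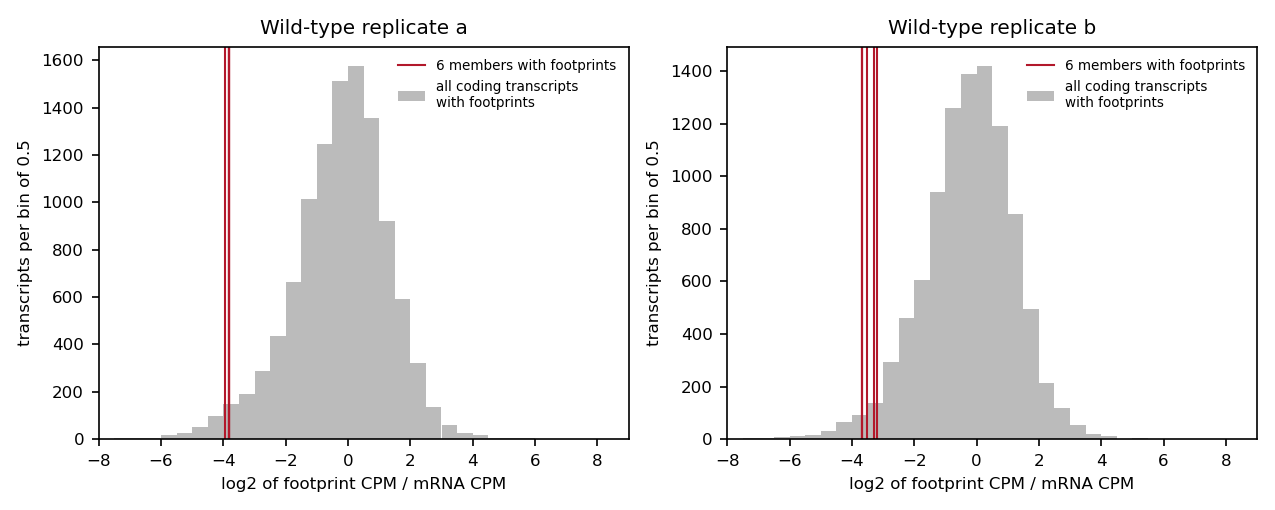
Histograms of the log2 ratio of footprint CPM to mRNA CPM over coding transcripts with at least 20 mRNA counts and at least 1 footprint, in wild-type replicates a and b, with the number of transcripts per bin on the vertical axis. Red lines mark the 6 transcripts of 909 to 1452 nt, at ratios of 0.0656 to 0.108, left of most transcripts.

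Other coding transcripts with the most similar levels were sought over all 17 libraries, by the root-mean-square difference in log2(CPM + 0.5) from the median of each set. Near the larger set lay ENSMUST00000084677, with a difference of 0.800, ENSMUST00000107981 with 0.879, ENSMUST00000098119 with 0.900 and ENSMUST00000098130 with 1.006, while the median coding transcript differed by 7.16 and the farthest of the 6 members by 0.828. These 4 are of other coding sizes (204 to 963) and were 32.7-fold to 57.7-fold higher than IgG in anti-MAEL replicate a and 24.0-fold to 39.1-fold in replicate b. ENSMUST00000098119 and ENSMUST00000084677 had the same mRNA counts, 1211 and 503 in wild type and 65 and 51 in Mael-/-. In the 15 to 50 nt immunoprecipitate the 4 had 4358 to 6737 CPM. These libraries were among the 17 searched, so like folds and levels were partly built into the choice. Whether these transcripts share reads with the members was not tested. The next, ENSMUST00000165694, differed by 2.03, with 11.7-fold and 10.4-fold over IgG, so that likeness dropped off after these 4.

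Near the 4968 nt pair lay ENSMUST00000068526 with a difference of 1.39, ENSMUST00000164422 with 1.53, ENSMUST00000097044 with 1.59, and ENSMUST00000098118 and ENSMUST00000105039 with 1.66. The last 2 share with the pair the coding size of 122 and are 426 nt long, which on the reading above is the coding part alone. Their mRNA counts, 166 and 94 in wild type and 21 and 21 in Mael-/-, were close to the pair's. With anti-MAEL they had 1187 and 2238 counts against 162 with IgG, 9.93-fold and 9.90-fold, lower than the 18.4-fold and 18.5-fold of the pair of 4968 nt, whose counts include the long noncoding part.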

How the data were processed

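The members, lists and comparisons were chosen with earlier results of these data known. The deposited files hold counts per transcript or piRNA locus entry, not normalized by the authors. Build mm9, TopHat2 2.0.7, Bowtie2 2.0.6 and CASAVA 1.8 are listed per the submitters' processing notes, without roles, and the sources used here do not give how strand and multiply matching reads were counted. Library totals took 1 entry per piRNA locus. Each genotype comparison used edgeR 4.0.16 in R 4.3.3 (quasi-likelihood, TMM, filterByExpr, Benjamini-Hochberg over all features, adjusted p under 0.05) on that assay's 4 libraries, fitting genotype alone. The ratio of footprints to mRNA used the interaction over 8 libraries. The 2 members that had 0 footprints were not taken out before that fit, and their values are not given here. The fits were also run on simulated data, the outcome of which is not given here and is not used as support. Anti-MAEL against IgG was described without a test, because it chose the members. Alternatives were other scalings, no filter, DESeq2 1.42.0, a replicate block, identical rows collapsed and each library left out. Named transcripts besides the members are the 5 nearest in level to each set and the 2 just outside the 20-fold limit. Lists of pathway genes were not used, since 0 transcript IDs matched the reference tables. Python 3.11.15 did the rest.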

Additional observations from a re-analysis of the deposited data

How the results depend on the processing

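The depth of the footprint libraries limits what can be said of these transcripts, with 1 to 19 counts per member where any were found. In mRNA 8 members were called, 5 of 5 with identical rows collapsed, and 0 to 8 with 1 library left out (0 without either wild-type library); over all transcripts 3675 were called, and 0 to 4077 with 1 library left out. In footprints, where the filter had already selected members high in wild type, 1 member was called, 0 with library totals, 0 with DESeq2, 3 with no filter on low counts and 0 to 0 with 1 library left out, where leaving out wild-type replicate b left no member to test; over all transcripts 3090 were called, 1813 with DESeq2 and 2320 to 2713 with 1 library left out. In small RNA 0 members were called, 8 with library totals and 0 to 6 with 1 library left out; over all features 724 were called, 2588 with library totals, 481 with no filter and 78 to 1890 with 1 library left out. For the ratio of footprints to mRNA, where DESeq2 gave the members no adjusted p, 0 transcripts were called, 3 with no filter, 50 with DESeq2 and 0 to 178 with 1 library left out. The median log2 fold over IgG was 4.95, and 4.66 to 5.23 with 1 anti-MAEL library left out.

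Same-lettered libraries of the 2 genotypes are not said to be paired, and with 2 letters the data cannot settle it: their deviations correlated by 0.16 in mRNA, 0.51 in small RNA and -0.14 in footprints. With a replicate block, 0 members were called in footprints and 2 in small RNA, and 4072 features in small RNA; with the crossed replicate block, added after the data were seen, 4 members were called in footprints. All 8 members were called in mRNA with the block.

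Signs turned only for values that had not passed the test. In small RNA, with 1 library left out, the log2 fold change ranged from -0.36 to 0.76 for ENSMUST00000098113, from -0.20 to 0.96 for ENSMUST00000098115, from -0.87 to 0.33 for ENSMUST00000105156 (1.05 with library totals), from -0.0507 to 1.32 for ENSMUST00000107991 and for ENSMUST00000108024, from -0.36 to 0.68 for ENSMUST00000107998, from -0.21 to 0.96 for ENSMUST00000163580 and from -0.21 to 0.96 for ENSMUST00000172007. For the ratio of footprints to mRNA the ranges were -0.27 to 1.17 for ENSMUST00000098115, -0.17 to 1.26 for ENSMUST00000107991, ENSMUST00000107998 and ENSMUST00000108024, -0.41 to 0.67 for ENSMUST00000163580 (-0.0294 with library totals) and -0.35 to 1.05 for ENSMUST00000172007.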
